A study of Mus musculus with 2 samples.

Results

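The lysosome is the acidic compartment in which macrophages break down what they engulf. A proton pump, the V-ATPase, acidifies its lumen, and proteases, glycosidases and lipid hydrolases then digest proteins, glycans and lipids. Membrane proteins line the compartment and export the products, and Kupffer cells, the resident macrophages of the liver sinusoids, are known for a high capacity of this kind. The genes described here were a list of 37 names of lysosomal hydrolases, membrane proteins, V-ATPase subunits and the lysosomal protein progranulin. All 37 were found among the 25909 genes of the count table. The list was set by gene names, with earlier results of these data known. By role it held 8 cysteine cathepsins, 4 other proteases, 6 glycan hydrolases, 6 genes of lipid breakdown and cholesterol export, 8 membrane proteins, 4 V-ATPase subunits or partners and progranulin.

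The cells were CD45.2+ Lin- CD11b+ innate immune cells sorted from the livers of 4 male mice, marked with hashtags and pooled for single-cell RNA-seq. All 4 mice carried loxP-flanked Egr2 alleles (Egr2fl/fl), and 2 of them also carried 1 Lyz2-Cre allele (Lyz2Cre/+.Egr2fl/fl), which drives deletion of Egr2 in myeloid cells, neutrophils included. For each genotype 1 mouse was on normal diet (ND) and 1 was fed for 7 weeks with CDA-HFD, a high-fat diet that lacks choline, has a defined amino acid content and produces steatohepatitis, and the mice were 6 to 12 weeks old at the start. With 1 mouse per group no difference between diets or genotypes has a replicate check, so no p-values are given. The 95% intervals cover counting error only, and those of shares of cells cover the sampling of cells within a mouse. Neither measures the spread between mice.

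Egr2, the targeted gene, was lower in the Lyz2Cre/+.Egr2fl/fl mouse in the macrophage classes. It stood at 5.05 and 1.12 CPM (a gene's share of all counts of the class and mouse, times 1000000) in Kupffer cells of the Egr2fl/fl and the Lyz2Cre/+.Egr2fl/fl mouse on ND. On CDA-HFD it stood at 61.2 and 4.28 CPM in moKC-like macrophages and at 58.6 and 19.9 CPM in LAM-like macrophages. In Cd209a+ dendritic cells on CDA-HFD the values were 59.7 and 48.2 CPM.

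Cell classes were set by marker genes that include none of the 37. Kupffer cells had counts of Clec4f and Timd4. Cells with Kupffer-type markers such as Cd5l and Vcam1 but no Timd4 were called moKC-like, after monocyte-derived Kupffer cells, and cells with Spp1, Trem2, Cd36 and similar markers were called LAM-like, after lipid-associated macrophages. Of 15384 cells, 7852 (51.0%) fell into exactly 1 class, and total counts per mouse ranged from 27840300 to 90124521. In a clustering made without the 37 genes, 89.2% of Kupffer cells and 80.6% of LAM-like cells lay in clusters of the same name, against 62.8% of moKC-like cells and 59.8% of Ly6Chi monocytes. Kupffer cells were described on ND, with 673 and 707 cells in the Egr2fl/fl and the Lyz2Cre/+.Egr2fl/fl mouse, and only 4 and 8 cells passed that gate on CDA-HFD. On CDA-HFD there were 144 and 199 moKC-like and 434 and 388 LAM-like cells. The 9 Kupffer cell markers summed to 24260 and 26460 CPM in Kupffer cells, to 2801 and 3915 CPM in moKC-like cells and to 80.1 and 98.4 CPM in LAM-like cells, with Timd4 at 0 in the latter classes by their gates. The 12 LAM markers summed to 11120 and 10360 CPM in LAM-like and to 6003 and 5231 CPM in moKC-like cells. Both marker lists include genes that set the gates, so these sums describe the classes and are no separate check of them. Ly6Chi monocytes numbered 85 and 51 on ND, and 654 and 706 on CDA-HFD. CPM were not divided by transcript length, so a level was compared between classes or mice for the same gene and not between genes.

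Transcription of many lysosome genes is known to be driven by TFEB, TFE3 and MITF, which bind the CLEAR element around the palindrome CACGTG. Promoter windows of 300 bases, 250 before to 50 after the start, were read from RefSeq (GRCm38.p6) and were found for 31 of the 37 genes. CACGTG occurred in the windows of 10 of the 31 genes (32.3%), against 8.09% of 27025 genes with windows of the same length. TCACGTG, searched on both strands, occurred in 8 genes (25.8%) against 4.29%, and TCACGTGA in 5 genes (16.1%) against 1.12%. These motifs overlap, since each longer one holds CACGTG. The 5 genes with TCACGTGA were Ctsa, Ctsd, Mcoln1, Atp6v0d1 and Gla, and Lamp1, Glb1 and Lgmn held TCACGTG but not the longer form, while Ctsl and Ctsf held only CACGTG. The windows of Ctsd, Lamp1 and Ctsa are shown as examples with several copies of CACGTG, which those of Gla and Mcoln1 also hold. The window of Gpnmb is shown because this gene had the largest ratio between moKC-like macrophages and Kupffer cells while its window held no CACGTG. A gene counted if any of its windows held the motif, and Ctsa and Lgmn each had another window without CACGTG. Capitals mark CACGTG.
Ctsd chr7:142387778-142388077 (minus strand): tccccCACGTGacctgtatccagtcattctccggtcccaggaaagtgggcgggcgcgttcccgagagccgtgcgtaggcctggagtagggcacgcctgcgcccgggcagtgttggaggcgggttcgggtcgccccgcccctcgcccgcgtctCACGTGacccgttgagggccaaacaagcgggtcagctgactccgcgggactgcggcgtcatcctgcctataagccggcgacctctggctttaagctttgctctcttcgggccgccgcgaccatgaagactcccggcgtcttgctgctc
Lamp1 chr8:13158911-13159210 (plus strand): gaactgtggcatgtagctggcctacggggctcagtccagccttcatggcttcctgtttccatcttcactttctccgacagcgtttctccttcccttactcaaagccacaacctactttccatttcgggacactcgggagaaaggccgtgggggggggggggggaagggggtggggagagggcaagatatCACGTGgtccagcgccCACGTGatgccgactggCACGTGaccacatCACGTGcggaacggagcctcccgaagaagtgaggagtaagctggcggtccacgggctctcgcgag
Ctsa chr2:164833523-164833822 (plus strand): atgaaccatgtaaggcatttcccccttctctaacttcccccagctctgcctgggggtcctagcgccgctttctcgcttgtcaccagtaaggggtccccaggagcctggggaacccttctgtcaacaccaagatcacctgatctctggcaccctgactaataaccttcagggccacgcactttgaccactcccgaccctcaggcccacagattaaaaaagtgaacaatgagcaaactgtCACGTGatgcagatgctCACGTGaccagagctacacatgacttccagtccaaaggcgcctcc
Gpnmb chr6:49036268-49036567 (plus strand): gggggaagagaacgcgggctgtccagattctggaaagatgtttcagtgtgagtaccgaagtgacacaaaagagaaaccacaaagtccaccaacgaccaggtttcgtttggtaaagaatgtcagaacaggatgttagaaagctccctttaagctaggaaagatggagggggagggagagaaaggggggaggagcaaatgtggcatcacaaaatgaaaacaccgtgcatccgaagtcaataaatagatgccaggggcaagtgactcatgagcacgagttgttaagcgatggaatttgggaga

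The lysosome genes together took a larger share of all counts in the macrophage classes than in monocytes, dendritic cells or neutrophils. Their summed level in Kupffer cells on ND was 34850 CPM (95% interval 34760 to 34940) in the Egr2fl/fl mouse and 37010 CPM in the Lyz2Cre/+.Egr2fl/fl mouse. On CDA-HFD it was 42360 and 37200 CPM in moKC-like and 42110 and 38140 CPM in LAM-like macrophages. Ly6Chi monocytes stood at 17390 and 18620 CPM on ND and at 19000 and 20880 CPM on CDA-HFD. Cd209a+ dendritic cells stood between 11470 and 12860 CPM in the 4 mice, and Ccr7+ dendritic cells on CDA-HFD at 10040 and 9524 CPM. The macrophage values did not overlap with those of any other class in these mice. Ctsb, a cathepsin whose low values were set to 0 in the file (the lowest value above 0 was 7), made up 14.7% of the summed counts over all cells. Without Ctsb the sums were 27210 and 28140 CPM in Kupffer cells and 16370 and 17280 CPM in Ly6Chi monocytes on ND, the same order.

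**Figure D1:**
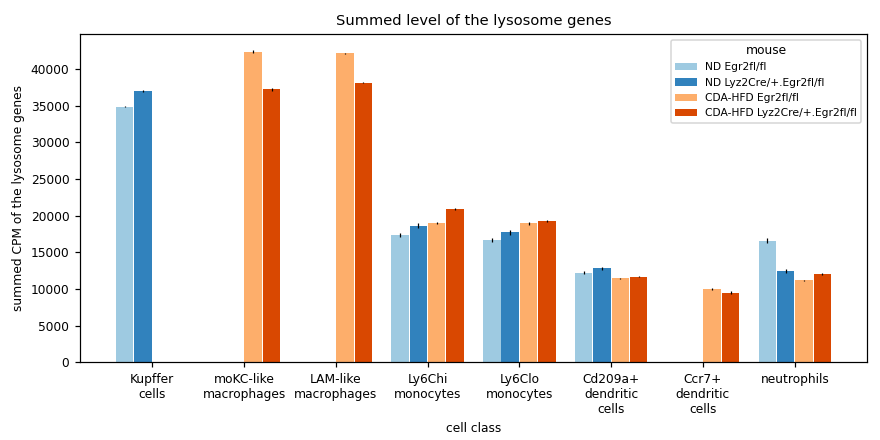
Summed CPM of the 37 lysosome genes (vertical axis, from 0) by cell class, without the moKC-like cells on ND, with 1 bar per mouse coloured by diet and genotype and error bars giving the 95% Poisson interval of the counts. The plotted macrophage classes lie between 34850 and 42360 CPM and every other plotted class lies at or below 20880 CPM.

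The gene-by-gene picture was less uniform. On ND, 23 of the 37 genes had their highest level in Kupffer cells in both mice among 5 classes (Kupffer cells, both monocyte classes, Cd209a+ dendritic cells and neutrophils), and of 9559 genes with at least 100 counts over these classes in each mouse, a limit that 34 of the 37 passed, 18.6% were. Among 7 classes on CDA-HFD, 15 genes were highest in moKC-like and 11 in LAM-like macrophages in both mice, where 9.81% and 6.68% of 10739 genes were. Gm2a, the activator protein for ganglioside breakdown, was highest in Cd209a+ dendritic cells on both diets, at 1156 and 1331 CPM on ND and at 974 and 909 CPM on CDA-HFD. Laptm5, a lysosomal membrane protein of blood cells, was highest in Ly6Clo monocytes, at 1734 and 1871 CPM on ND and at 1611 and 1554 CPM on CDA-HFD. Ccr7+ dendritic cells had the lowest level of 18 genes on CDA-HFD in both mice, where 17.7% of the 10739 genes were lowest. Cd63 was not among those, since Ccr7+ dendritic cells held 1024 and 1008 CPM of this tetraspanin of late endosomes, against 18.4 and 10.4 CPM in Cd209a+ dendritic cells.

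**Figure D2:**
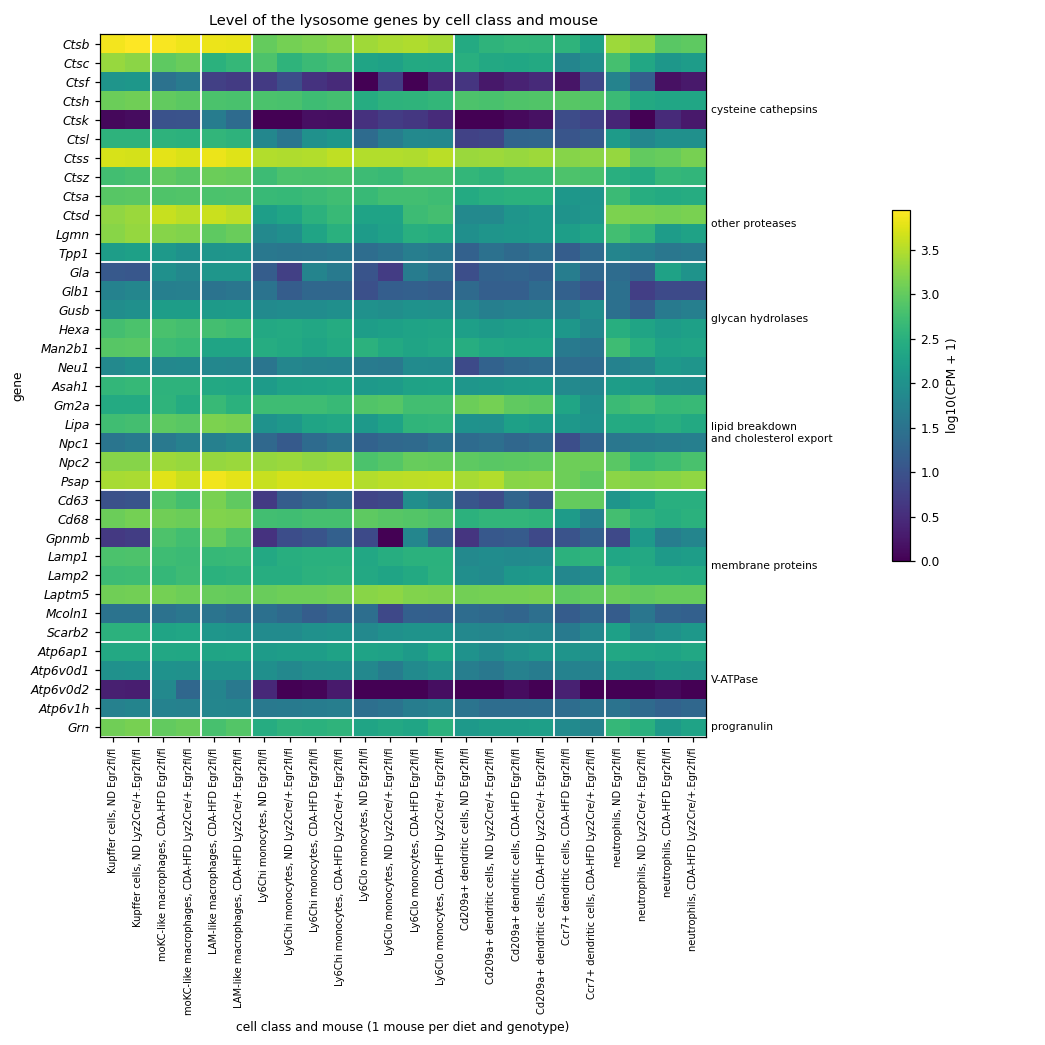
Level of each lysosome gene (rows, grouped by role) in each cell class and mouse (columns), coloured by log10(CPM + 1). Outside moKC-like and LAM-like macrophages Ctsk stays at or below 7.19 CPM and Atp6v0d2 at or below 1.82 CPM, while Psap is at 923.6 CPM or more in every class.

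Kupffer cells were compared with Ly6Chi monocytes of the same ND mice. A gene was compared where it had at least 100 counts over each pair of groups, and it was called when its CPM differed at least 1.5-fold in the same direction in the pair of each genotype. Of the 34 lysosome genes compared, 22 (64.7%) were higher in Kupffer cells, and 23.5% of all 9058 genes compared were. In the other direction 2 (5.88%) were lower, against 11.7% of all genes. The median ratio of the lysosome genes was 2.04, against 1.12 over all genes. The higher genes included 6 of 7 cysteine cathepsins compared and all 4 other proteases, but 3 of 6 glycan hydrolases and 1 of 3 V-ATPase genes.

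Lgmn, the asparaginyl endopeptidase legumain, stood at 1791 and 2111 CPM in Kupffer cells of the Egr2fl/fl and the Lyz2Cre/+.Egr2fl/fl mouse and at 71.1 and 92.5 CPM in their Ly6Chi monocytes. The ratios were 25.2 (95% interval 20.2 to 31.9) and 22.8 (17.8 to 29.9). Ctsf, cathepsin F, stood at 114 and 123 CPM against 3.64 and 7.58 CPM. Ctsd, the aspartic protease cathepsin D, stood at 1973 and 2227 CPM against 162 and 206 CPM, which is 12.2-fold and 10.8-fold higher. The groups were far apart in both mice for these 3 proteases. Ctsl, the endopeptidase cathepsin L, was 5.34-fold and 10.2-fold higher, and Ctsb was 7.49-fold and 6.61-fold higher. Lipa, the acid lipase that frees cholesterol and fatty acids from lipoproteins, was 5.30-fold and 4.59-fold higher. Tpp1, tripeptidyl peptidase, was 4.14-fold and 5.02-fold higher, and Scarb2, the membrane receptor that carries glucocerebrosidase, was 4.32-fold and 4.33-fold higher. The remaining higher genes, Grn, Ctsc, Man2b1, Glb1, Lamp1, Asah1, Hexa, Npc1, Cd68, Ctsa, Ctsh, Lamp2, Ctss and Atp6ap1, had smaller mean log2 ratios, from 2.05 for Grn to 0.67 for Atp6ap1. Grn, progranulin, which is cut into granulins inside the lysosome, stood at 1216 and 1398 CPM in Kupffer cells and at 282 and 355 CPM in Ly6Chi monocytes. The structural membrane proteins were also higher, with Lamp1 2.88-fold and 2.37-fold, Lamp2 1.74-fold and 1.83-fold, and Cd68, a sialomucin of macrophage lysosomes, 2.10-fold and 2.42-fold. Hexa, a beta-hexosaminidase subunit, was 2.47-fold and 2.601-fold higher, Asah1, the acid ceramidase, 2.80-fold and 2.36-fold, and Npc1, the membrane transporter that exports cholesterol, 1.61-fold and 3.26-fold. The ratio for Npc1 rests on low levels, with a lower interval bound of 1.06 in the Egr2fl/fl mouse. Ctsa, a carboxypeptidase that protects galactosidase and sialidase, was 1.80-fold and 1.91-fold higher, Ctsh, an aminopeptidase, 1.70-fold and 1.90-fold, and Ctss, a protease of antigen presentation, 1.69-fold and 1.66-fold. Atp6ap1, an accessory subunit of the V-ATPase, stood at 237 and 244 CPM against 146 and 156 CPM. The higher genes therefore came from every role on the list. The 2 lower genes were Psap and Gm2a. Psap, the precursor of the saposins, stood at 2736 and 2845 CPM in Kupffer cells and at 4194 and 4929 CPM in Ly6Chi monocytes. Gm2a stood at 257 and 255 CPM against 518 and 534 CPM. Psap was no longer past 1.5-fold in each pair with TMM scaling, at a mean log2 ratio of -0.56, or with totals that left out the genes whose low values were set to 0, at -0.58.

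On CDA-HFD most lysosome genes compared were higher in moKC-like macrophages than in Ly6Chi monocytes of the same mice. Lgmn, Ctsf, Ctsd, Ctsb and Lipa were among the genes with the largest ratios here as in Kupffer cells on ND, and so were Gpnmb, Cd63 and Atp6v0d2 here. Of 36 lysosome genes compared, 24 (66.7%) were higher in moKC-like macrophages in both mice, against 13.2% of 7921 genes, and 0 were lower, against 12.1% of all genes. The median ratio was 1.85 for the lysosome genes and 0.989 over all genes. All roles had higher members, with 6 of 8 membrane proteins, 5 of 6 glycan hydrolases and 5 of 7 cysteine cathepsins compared.

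Gpnmb, a glycoprotein of phagosomes and lysosomes in macrophages, stood at 702 and 569 CPM in moKC-like macrophages and at 9.45 and 15.3 CPM in Ly6Chi monocytes. It was 74.3-fold (95% interval 59.6 to 93.7) and 37.2-fold (31.5 to 44.2) higher. Cd63 stood at 791 and 577 CPM against 18.9 and 25.6 CPM. Atp6v0d2, a V-ATPase subunit known from osteoclasts and macrophages, stood at 70.4 and 19.6 CPM against 0.115 and 0.93 CPM. Only 1 count lay behind the Ly6Chi value of the Egr2fl/fl mouse, so its ratio of 610 has an interval of 109 to 24190, and the ratio in the other mouse was 21.1 (10.7 to 47.5). Atp6v0d2 was near 0 in Ly6Chi monocytes of both mice, and Cd63 and Gpnmb were low there. Ctsf was 10.7-fold and 21.6-fold higher, Ctsd 12.2-fold and 7.49-fold, and Lgmn 8.70-fold and 5.08-fold. Ctsb was 5.40-fold and 4.14-fold higher, and Lipa 4.56-fold and 3.65-fold. Gusb, the beta-glucuronidase that trims glycosaminoglycans, stood at 155 and 155 CPM against 82.4 and 91.3 CPM. Mcoln1, the calcium channel of the lysosome, stood at 30.2 and 35.6 CPM against 13.4 and 17.98 CPM.

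**Figure D3:**
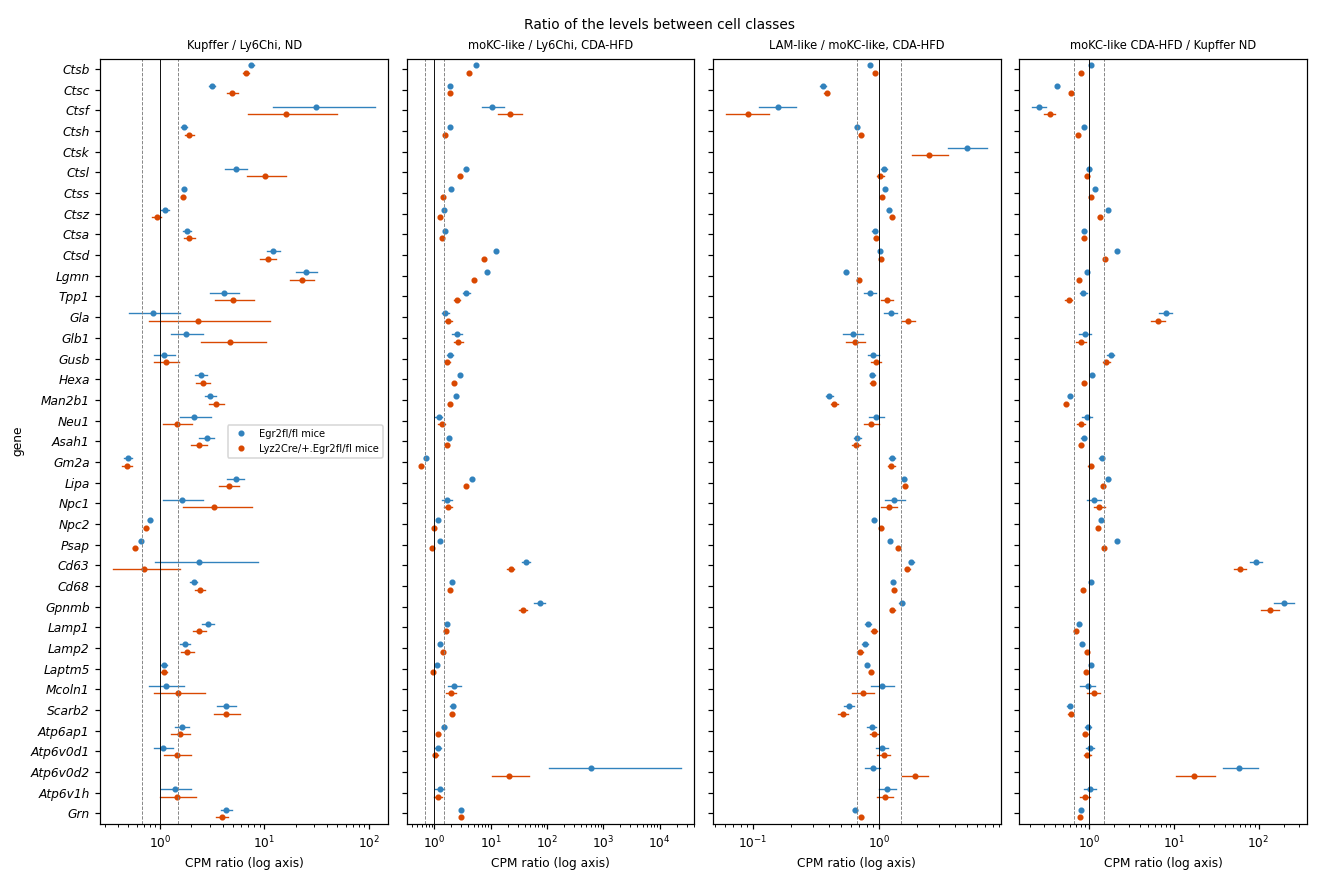
CPM ratio of each lysosome gene between cell classes (horizontal log axis), with points for the 2 genotypes, lines for the 95% counting intervals and dashed lines at 1.5-fold in each direction, and with genes below 100 counts left out. Most points of the first 2 panels lie to the right of 1, and in the third panel Ctsk lies to the right and Ctsf to the left in both mice.

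LAM-like and moKC-like macrophages of the CDA-HFD mice had almost the same summed level, while a minority of the lysosome genes differed between them. The summed level of LAM-like cells was 0.994 times (95% interval 0.989 to 1.00) that of moKC-like cells in the Egr2fl/fl mouse and 1.03 times (1.02 to 1.03) in the Lyz2Cre/+.Egr2fl/fl mouse. Of 37 genes compared, 3 (8.11%) were higher in LAM-like cells, against 4.0% of 8108 genes, and 5 (13.5%) were lower, against 6.62%. Ctsk, cathepsin K, a collagenase known from osteoclasts, stood at 44.6 and 23.4 CPM in LAM-like and at 8.89 and 9.33 CPM in moKC-like cells. Ctsk counts came from few cells. At an equal depth of 5000 counts, 12.5% (95% interval 9.53 to 16.1) of LAM-like cells of the Egr2fl/fl mouse held a Ctsk count, against 1.43% (0.173 to 5.07) of moKC-like cells. In the Lyz2Cre/+.Egr2fl/fl mouse the shares were 6.63% (4.34 to 9.63) and 3.08% (1.14 to 6.58), with intervals that overlap. In Ly6Chi monocytes, a type not known for this gene, they were 0.466% and 0.289%, with median depths before thinning of 23480 and 19940 counts in LAM-like cells, 28870 and 24680 in moKC-like cells and 12920 and 13420 in these monocytes. Before thinning the shares were 22.6% and 13.4% of LAM-like and 4.17% and 3.52% of moKC-like cells. Cd63 was 1.82-fold and 1.68-fold higher in LAM-like cells, and Lipa 1.58-fold and 1.61-fold.

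The 5 lower genes were Ctsf, Ctsc, Man2b1, Scarb2 and Glb1. Ctsf stood at 4.69 and 3.88 CPM in LAM-like against 29.7 and 42.4 CPM in moKC-like cells. Ctsc, cathepsin C, which activates serine proteases of granules, stood at 334 and 427 CPM against 927 and 1112 CPM. Man2b1, the lysosomal alpha-mannosidase, stood at 202 and 203 CPM against 500 and 460 CPM. Both mice had the lower values in LAM-like cells. Scarb2 was 0.581 and 0.516 times, and Glb1, the beta-galactosidase, 0.624 and 0.649 times its moKC-like level. Glb1 lost its call with classes from the clustering, with TMM scaling and with a stricter hashtag limit, at mean log2 ratios of -0.73, -0.56 and -0.54. Ctsf, Ctsc, Man2b1 and Scarb2 also had a higher level in Kupffer cells on ND than in moKC-like cells in both genotypes.

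The moKC-like macrophages of CDA-HFD livers were compared with the Kupffer cells of ND livers of the same genotype, a comparison in which class and diet both differ. The 12 LAM markers, all detected in each of these groups, summed to 6003 and 5231 CPM in moKC-like and to 1215 and 1288 CPM in Kupffer cells, and their part in the results was not tested. Of 36 lysosome genes compared, 7 (19.4%) were higher in moKC-like cells, against 6.87% of 9534 genes, and 4 (11.1%) were lower, against 12.3%. Gpnmb stood at 702 and 569 CPM in moKC-like cells and at 3.56 and 4.18 CPM in Kupffer cells, ratios of 197 (95% interval 153 to 259) and 136 (107 to 176). Cd63 was 92.6-fold and 60.4-fold higher, from 8.55 and 9.55 CPM in Kupffer cells. Atp6v0d2 was 59.3-fold and 17.5-fold higher, and Gla, the alpha-galactosidase that clears globotriaosylceramide, was 8.08-fold and 6.52-fold higher. These 4 genes were low in Kupffer cells of both ND mice. Psap was 2.15-fold and 1.52-fold higher, Ctsd 2.12-fold and 1.54-fold, and Gusb 1.82-fold and 1.61-fold. The lower genes were Ctsf at 0.262 and 0.346 times the Kupffer level, Ctsc at 0.425 and 0.614 times, Man2b1 at 0.597 and 0.539 times, and Scarb2 at 0.595 and 0.614 times. With classes from the clustering Psap, Ctsd and Atp6v0d2 were no longer called, at mean log2 ratios of 0.67, 0.59 and 3.47, and 4 genes were higher.

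The moKC-like gate also held 44 and 57 cells of the ND mice, which allow class and diet to be compared one at a time, a step added after the data were seen. These cells were shallow and mixed. Their median was 8669 and 8349 counts, 20 and 27 of them lay in a cluster led by Alb, the albumin of hepatocytes, and 13 and 22 in the moKC-like cluster. The 9 Kupffer cell markers summed to 8661 and 11090 CPM in them, with 8 of 9 detected and Timd4 at 0 by the gate, and the part of these features in the results was not tested. The lysosome genes summed to 32370 and 31180 CPM. Within ND, 2 of 34 lysosome genes compared (5.88%) were higher in moKC-like than in Kupffer cells, against 4.43% of 9000 genes, and 2 (5.88%) were lower, against 8.97%. Cd63 stood at 184 and 77.6 CPM in moKC-like cells, 21.5-fold (16.4 to 28.1) and 8.13-fold (5.73 to 11.3) above Kupffer cells. Gla was 2.69-fold and 1.56-fold higher on 16 and 10 counts, and Scarb2 and Atp6v0d1, a V-ATPase subunit, were lower. Gpnmb stood at 99.9 and 6.61 CPM, on 51 and 4 counts, too few for a comparison in both mice. Within the moKC-like gate, 7 of 36 genes (19.4%) were higher on CDA-HFD than on ND, against 6.54% of 4966 genes, and 1, Ctsf, was lower, against 5.54%. The 12 LAM markers summed to 1590 and 1115 CPM in these cells on ND, with F7 and Mmp12 at 0 in the second mouse, and to 6003 and 5231 CPM on CDA-HFD with all 12 detected, and their part in the result was not tested. The higher genes were Ctsd, Cd63, Gla, Lipa, Atp6v0d1, Atp6v0d2 and Gpnmb. Ctsd stood at 4182 and 3422 CPM on CDA-HFD and at 1502 and 1356 CPM on ND, and Cd63 was 4.30-fold and 7.43-fold higher.

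The cluster that took the moKC-like name had 8 of the 10 moKC markers raised over the other clusters, but Olfml3, Fcrls, Pf4 and Tmem119 led it, and of the moKC markers only Vcam1 was among its 10 leading genes. It held 1280 and 1729 CPM of the Kupffer cell markers on CDA-HFD, less than the gate, and 410 and 1164 CPM on ND, so the name is less certain for it than for the gate. It had 76 and 68 cells of the ND mice, and their lysosome genes summed to 27230 and 25530 CPM. Within ND only Cd63 was then higher than in Kupffer cells, at 26.5-fold and 10.4-fold, where 8.85% of 9298 genes were higher. Lower were 11 of 34 genes (32.4%), against 11.6% of all genes, namely Ctsb, Ctsd, Ctsf, Ctsl, Lamp1, Lgmn, Man2b1, Scarb2, Grn, Tpp1 and Neu1. Between the diets 9 of 35 genes compared in moKC-like cells (25.7%) were higher on CDA-HFD, against 5.51% of 7692 genes, and 1, Ctsf, was lower, against 7.98%. The LAM markers, all 12 detected in each mouse, summed there to 1157 and 1030 CPM on ND and to 3720 and 3762 CPM on CDA-HFD, and their part was not tested. Ctsd, Cd63, Gla, Lipa and Gpnmb were higher on CDA-HFD by both definitions of the class, and Ctsb, Ctsl, Lgmn and Grn only by the clustering.

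Ly6Chi monocytes, neutrophils and Cd209a+ dendritic cells were also compared between the diets. In Ly6Chi monocytes 5 of 33 lysosome genes compared (15.2%) were higher on CDA-HFD in both genotypes, against 6.94% of 6963 genes, and 0 were lower, against 3.39%. Gla stood at 60.2 and 39.5 CPM on CDA-HFD and at 13.7 and 4.55 CPM on ND, which rest on 15 and 3 counts. Lgmn stood at 198 and 317 CPM against 71.1 and 92.5 CPM, and Ctsd at 344 and 457 CPM against 162 and 206 CPM. The CDA-HFD values of these 3 genes lay above both ND values. Cd63 was 5.19-fold and 1.88-fold higher, with an interval in the second pair of 0.974 to 4.16, and Lipa was 1.98-fold and 1.86-fold higher. The 12 LAM markers moved in the same direction in this gate, with a summed level of 408 and 502 CPM on ND and of 1058 and 1296 CPM on CDA-HFD. Of these markers 10 and 9 had counts on ND and 11 in each CDA-HFD mouse, with Mmp12 at 0 in all 4 mice, and their part in the result was not tested. Of the ND cells in the gate, 12 of 85 and 3 of 51 lay in a cluster led by Cxcl9, and their part was not tested either. With classes from the clustering Cd63 and Lipa were no longer called, at mean log2 ratios of 1.34 and 0.59.

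In the neutrophil gate the lysosome genes called lower on CDA-HFD were called over all cells and not without a few cells that held counts of the Kupffer cell marker Clec4f. Over all cells of the gate, 3 of 31 lysosome genes compared (9.68%) were higher on CDA-HFD, against 7.14% of 4217 genes, and 5 (16.1%) were lower, against 6.02%. The lower genes were Ctsc, Lgmn, Ctsb, Grn and Lamp1. Lgmn, for example, stood at 562 and 389 CPM on ND and at 153 and 190 CPM on CDA-HFD. All 9 Kupffer cell markers had counts in the gate on ND, with a summed level of 7351 and 2743 CPM, against 92.8 and 33.8 CPM on CDA-HFD. The cells with a Clec4f count were 6 of 98 and 7 of 183 on ND, and 1 of 780 and 0 of 646 on CDA-HFD. The 12 LAM markers summed to 1180 and 1305 CPM on ND, with F7 and Mmp12 at 0, and to 2764 and 2342 CPM on CDA-HFD with all 12 detected, and their part was not tested. Without the cells that held a Clec4f count, a choice made after Clec4f was seen in this gate, Lgmn stood at 130 and 144 CPM on ND. Of 31 lysosome genes compared, 0 were then lower on CDA-HFD (5.92% of 4056 genes were) and 6 were higher (8.90% of those genes were). The higher genes were Ctsl, Ctsz, Lamp1, Gla, Scarb2 and Neu1. The same change turned the mean log2 ratio of Ctsb, Lgmn, Grn and Lamp1 from negative to positive. The summed level of the lysosome genes was 16600 and 12470 CPM on ND over all cells of the gate, 9118 and 9667 CPM without the Clec4f cells, and 11190 and 12080 CPM on CDA-HFD.

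Gla and Neu1, the sialidase that trims glycoproteins, were higher on CDA-HFD with and without those cells. Gla stood at 24.3 and 17.5 CPM on ND and at 185 and 107 CPM on CDA-HFD over all cells of the gate, and at 11.6 and 17.9 CPM on ND without the Clec4f cells. Neu1 stood at 55.1 and 64.4 CPM on ND and at 136 and 112 CPM on CDA-HFD, and at 43.9 and 66.4 CPM on ND without them. The CDA-HFD mice lay above the ND mice in each case. Cd63 was 2.71-fold and 1.57-fold higher over all cells. Without the Clec4f cells its log2 ratios were 0.99 and 0.49, and it was no longer called. Ctsb was at 0 in 83.8% to 92.9% of the cells of the gate in the 4 mice, and true zeros cannot be told apart from low values that were set to 0.

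**Figure D4:**
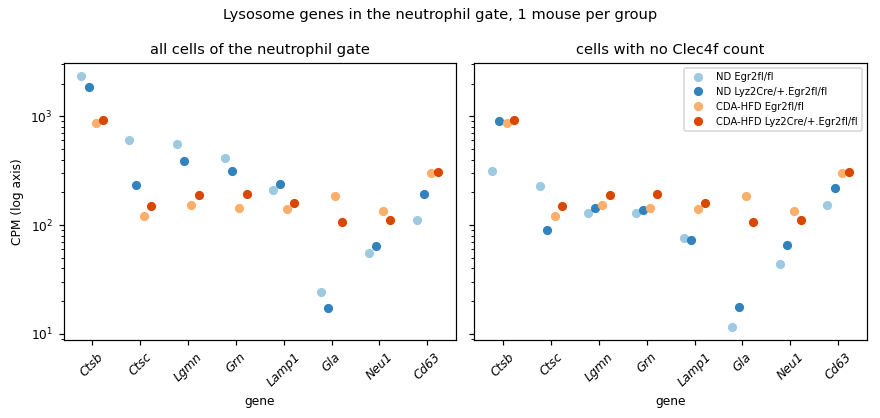
CPM (log axis) of the 8 lysosome genes called between the diets in the neutrophil gate, with 1 point per mouse, over all cells of the gate (left) and over the cells with no Clec4f count (right). The ND points of Lgmn lie at 562 and 389 CPM on the left and at 130 and 144 CPM on the right, while Gla stays lower on ND in both panels.

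In Cd209a+ dendritic cells 3 of 32 lysosome genes compared (9.38%) were higher on CDA-HFD, against 3.98% of 6756 genes, and 1 (3.12%) was lower, against 2.71%. Ctsl stood at 17.6 and 18.4 CPM on CDA-HFD and at 4.94 and 5.70 CPM on ND. Ctsd stood at 113 and 131 CPM against 71.0 and 70.8 CPM, and Lipa at 174 and 149 CPM against 103 and 99.3 CPM. The ND and CDA-HFD values of these 3 genes did not overlap. Psap was the lower gene, at 1769 and 1796 CPM against 2709 and 3139 CPM. Ctsl and Psap were no longer called with classes from the clustering, at mean log2 ratios of 0.59 and -0.50, and Ctsd and Lipa were no longer called with a mean over cells, at 0.61 and 0.58.

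Between the genotypes most lysosome genes differed by less than 1.5-fold. In Kupffer cells on ND, 0 of 35 genes compared were past 1.5-fold in either direction, against 3.92% higher and 2.56% lower of 10639 genes. Their summed level was 1.06 times (95% interval 1.06 to 1.07) as high in the Lyz2Cre/+.Egr2fl/fl mouse. On CDA-HFD it was 0.878 times (0.872 to 0.884) as high in moKC-like and 0.906 times (0.902 to 0.910) in LAM-like macrophages, and 1.10 times (1.09 to 1.11) in Ly6Chi monocytes. Atp6v1h, a V-ATPase subunit, stood at 55.6 and 54.2 CPM in moKC-like cells of the Egr2fl/fl and the Lyz2Cre/+.Egr2fl/fl mouse. Atp6v0d1, the widely expressed form of the d subunit, stood at 101 and 97.2 CPM in the same cells. Npc2, which hands cholesterol on for export, stood at 2328 and 2173 CPM, and Ctsz, the carboxypeptidase cathepsin Z, at 959 and 836 CPM.

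In moKC-like macrophages 1 of 36 genes compared (2.78%) was lower in the Lyz2Cre/+.Egr2fl/fl mouse, against 4.48% of 7240 genes, and 0 were higher, against 5.44%. This gene was Atp6v0d2, at 19.6 CPM against 70.4 CPM, a ratio of 0.279 (95% interval 0.220 to 0.352). Its counts were found in 31 of 144 cells of the Egr2fl/fl mouse and in 12 of 199 cells of the Lyz2Cre/+.Egr2fl/fl mouse. At an equal depth of 5000 counts the shares were 10.7% (6.12 to 17.1%, exact interval) and 3.08% (1.14 to 6.58%), while 0.155% and 0.145% of Ly6Chi monocytes held a count. In the Egr2fl/fl mouse 87.7% of the Atp6v0d2 counts lay in the top 10% of cells, so that few cells held most of them.

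In LAM-like macrophages 2 of 36 genes compared (5.56%) were lower in the Lyz2Cre/+.Egr2fl/fl mouse, against 3.35% of 9050 genes, and 0 were higher, against 4.66%. Atp6v0d2 stood at 37.9 CPM against 62.7 CPM, a ratio of 0.605 (0.528 to 0.693). Its counts were found in 37 of 388 cells of the Lyz2Cre/+.Egr2fl/fl mouse and in 71 of 434 cells of the Egr2fl/fl mouse. The top 10% of cells held 100% and 93.3% of these counts. At equal depth the shares of cells with a count were 5.57% (3.48 to 8.39%) and 10.9% (8.07 to 14.2%), with intervals that overlap. Ctsk stood at 23.4 CPM against 44.6 CPM, a ratio of 0.525 (0.442 to 0.621). The top 10% of LAM-like cells held 93.3% and 81.9% of the Ctsk counts. Its shares at equal depth, 6.63% (4.34 to 9.63%) and 12.5% (9.53 to 16.1%), also had intervals that overlap. Few LAM-like cells therefore held most counts of these genes. Cd63 and Gpnmb, which are far more abundant there, lay just short of the threshold. Cd63 stood at 970.6 CPM against 1436 CPM, a ratio of 0.676 (0.658 to 0.694), and Gpnmb at 727 CPM against 1065 CPM, a ratio of 0.683 (0.662 to 0.705). In moKC-like cells their ratios were 0.729 and 0.810. With TMM scaling and with classes from the clustering Cd63 and Gpnmb were past 1.5-fold in LAM-like cells. Their log2 ratios were -0.62 and -0.60 for Cd63 and -0.61 and -0.65 for Gpnmb. Ctsk was not compared in the moKC-like gate, with under 100 counts. With classes from the clustering Ctsk was compared in moKC-like cells and was higher in the Lyz2Cre/+.Egr2fl/fl mouse, at a log2 ratio of 1.41, the opposite direction to LAM-like cells. The 12 LAM markers, which include those that define the class, had a summed level of 10360 CPM against 11120 CPM. In Ly6Chi monocytes on CDA-HFD 2 of 34 genes compared (5.88%) were higher in the Lyz2Cre/+.Egr2fl/fl mouse, against 3.81% of 8771 genes, and 1 (2.94%) was lower, against 2.90%. Gpnmb stood at 15.3 CPM against 9.45 CPM and Lgmn at 317 CPM against 198 CPM, and Gla was lower, at 39.5 CPM against 60.2 CPM. With classes from the clustering the log2 ratio was -0.25 for Gpnmb and 0.32 for Lgmn, and neither was called. Gla was no longer past 1.5-fold without the top 5% of cells by counts, at a log2 ratio of -0.55.

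**Figure D5:**
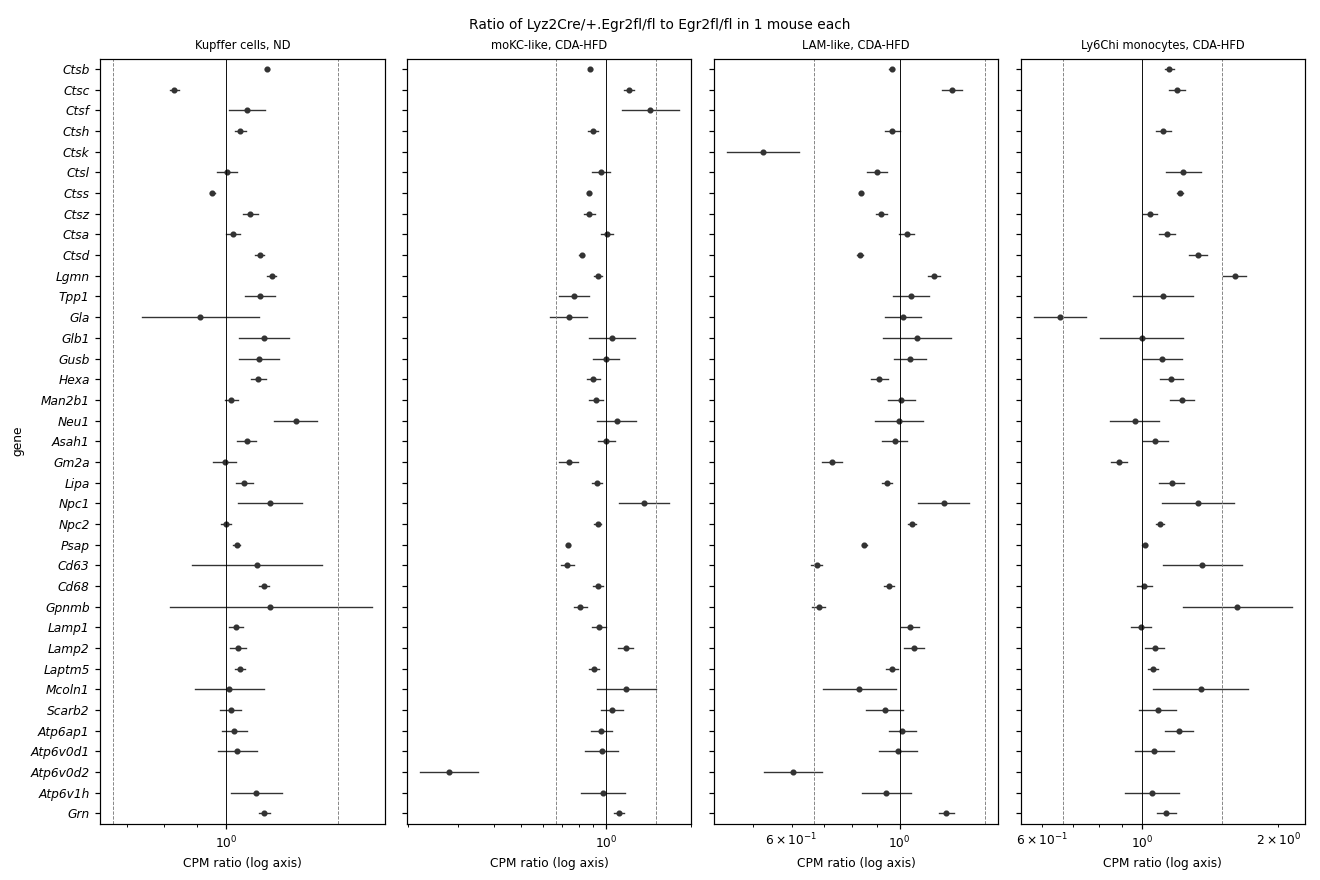
CPM ratio of the Lyz2Cre/+.Egr2fl/fl to the Egr2fl/fl mouse for each lysosome gene (horizontal log axis) in 4 classes, with points for ratios, lines for 95% counting intervals and dashed lines at 1.5-fold in each direction. Most points lie between the dashed lines, and Atp6v0d2 lies to the left in moKC-like and LAM-like macrophages.

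A second list of 77 lysosome genes, with further hydrolases, V-ATPase subunits, transporters, delivery factors, cathepsin inhibitors and transcription factors, gave the setting, and of it the genes with the largest ratios among those with at least 500 counts over each pair are named. In Kupffer cells against Ly6Chi monocytes 25 of 72 compared were higher and 3 lower, where 23.5% and 11.7% of all genes were, and of 25 hydrolases 15 were higher. Acp5, the tartrate-resistant acid phosphatase, stood at 560 and 659 CPM in Kupffer cells and at 23.7 and 30.3 CPM in Ly6Chi monocytes. Acp2, another acid phosphatase, was 23.3-fold and 8.26-fold higher, and Pld3, a nuclease of the lysosome, 17.2-fold and 10.8-fold. Naaa, an amidase for fatty acid ethanolamides, was lower at 0.222 and 0.214 times, and Lamtor4, a subunit of the Ragulator complex, at 0.373 and 0.530 times. In moKC-like cells against Ly6Chi monocytes 26 of 70 were higher, where 13.2% of all genes were, and 1, Naaa, was lower, at 0.125 and 0.157 times. Acp5 was 23.9-fold and 14.5-fold higher, Pld3 15.5-fold and 10.8-fold, and Acp2 4.10-fold and 3.55-fold.

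Of the 13 further V-ATPase subunits, 1 was higher in Kupffer cells than in Ly6Chi monocytes, where 23.5% of all genes were, and 3 were higher in moKC-like cells, where 13.2% of all genes were. In LAM-like against moKC-like cells 4 of 72 were higher and 6 lower, where 4.0% and 6.62% of all genes were. Mitf was 1.79-fold and 2.72-fold higher, Igf2r, the mannose 6-phosphate receptor, 2.38-fold and 2.04-fold, and Cstb, the cathepsin inhibitor cystatin B, 1.90-fold and 2.21-fold. Cd164, a sialomucin of endosomes and lysosomes, was lower at 0.399 and 0.364 times, Acp5 at 0.585 and 0.573 times, and Hgsnat, the heparan sulfate acetyltransferase, at 0.615 and 0.549 times. In moKC-like cells on CDA-HFD against Kupffer cells on ND 7 of 75 were higher and 9 lower, where 6.87% and 12.3% of all genes were. Among those with at least 500 counts over each pair the largest ratios were those of Cstb, Atp6v0a1 and Atp6v1c1 (2.59-fold, 2.10-fold and 1.91-fold in the Egr2fl/fl mice), and the lowest those of Cd164, Tfec and Naaa (0.280, 0.386 and 0.375 times). Sort1, a sorting receptor with fewer counts that was named after its values were seen, stood at 63.5 and 33.8 CPM in moKC-like cells and at 0.890 and 1.06 CPM in Kupffer cells. Cstb was also higher on CDA-HFD in Ly6Chi monocytes, at 518 and 509 CPM against 276 and 268 CPM, and in the neutrophil gate, 1.93-fold and 2.17-fold. Between the genotypes Atp6v0a1 was 0.659 times as high in LAM-like cells of the Lyz2Cre/+.Egr2fl/fl mouse.

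The 4 transcription factors differed in where they were high. Tfec stood at 142 and 141 CPM in Kupffer cells, at 54.6 and 60.1 CPM in moKC-like and at 22.4 and 28.6 CPM in LAM-like cells. Mitf stood at 38.6 and 35.3 CPM in Kupffer cells, at 50.3 and 36.0 CPM in moKC-like and at 90.03 and 97.9 CPM in LAM-like cells. Among these 3 classes Tfec was lowest and Mitf highest in LAM-like cells in both genotypes, and Mitf did not differ beyond counting error between Kupffer and moKC-like cells of the Lyz2Cre/+.Egr2fl/fl mice (35.3 and 36.0 CPM). Tfeb stood at 37.0 and 37.3 CPM in Kupffer cells and at 50.1 and 84.9 CPM in Ly6Chi monocytes on ND, and Tfe3 at 76.2 and 72.4 CPM against 43.7 and 53.1 CPM.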

How the data were processed

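The authors sorted the cells, made mRNA and hashtag libraries on a BD Rhapsody system with TAS-Seq and mapped them to a GRCm38 transcriptome. The deposited values are whole-number counts per gene and cell barcode, and whether these are reads or molecules is not given in the sources used here, although the authors ran velocyto on the same libraries with the option that uses no molecular identifiers. The submitters' processing notes name Seurat 4.1.1 and R 4.2.1. Low values of 34 genes (lowest value above 0 of at least 5) had been set to 0, among the lysosome genes only those of Ctsb. The deposited hashtag counts tie each barcode to a mouse, and a median of 93.7% of a cell's hashtag counts came from its own tag.

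The 1392 barcodes labelled as doublets were left out, as were cells above 25% mitochondrial counts, and doublets within a mouse were not called. Marker gates then set the classes, and 5868 cells fell in no gate. Of the cells in the gates, 171 moKC-like, 486 LAM-like and 546 Ly6Chi cells lay at the limit of their gate. Counts were summed per class and mouse and divided by their total (CPM), for classes with at least 50 cells in the mouse. The moKC-like cells of the ND mice (44 and 57) were kept out of the levels and figures and compared separately. Ratios have an exact binomial interval and levels an exact Poisson interval (scipy 1.17.1). Shares of cells have an exact binomial interval over the cells of a class and mouse. Genes needed 100 counts over each pair, and a call needed 1.5-fold in each pair. The step was tested on simulated counts. In each comparison the genes past 1.5-fold were named, up to 8 per direction, and of the second list 3 per direction with at least 500 counts, of which 1 gene is not reported here. Alternatives were classes from Seurat 5.3.0 clusters without the lysosome genes, other limits on cells and counts, edgeR 4.0.16 TMM scaling and a mean over cells. The genes and lists were chosen with earlier results of these data known.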

Additional observations from a re-analysis of the deposited data

Results flagged for a closer look

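In 4 cases a lysosome gene was at least 1.5-fold higher on CDA-HFD in the pair of 1 genotype and at least 1.5-fold lower in the pair of the other, and the difference was not tested. In the neutrophil gate Gpnmb stood at 6.48 CPM (ND) and 45.6 CPM (CDA-HFD) in Egr2fl/fl animals, against 132 CPM (ND) and 62.3 CPM (CDA-HFD) with Lyz2Cre/+, a difference between the log2 ratios of 3.90. Of the 121 Gpnmb counts of the ND Lyz2Cre/+.Egr2fl/fl mouse, 105 lay in a single cell. Npc2 in the same gate had a difference of -1.30 between the log2 ratios and Scarb2 one of -1.69, with ND levels of 869 and 433 CPM and of 173 and 69.8 CPM. Without the cells that held a Clec4f count the ND levels were 430 and 364 CPM for Npc2 and 60.1 and 63.8 CPM for Scarb2. In Cd209a+ dendritic cells Glb1 had a difference of -1.28, with 22.2 and 14.6 CPM on ND and 14.7 and 23.4 CPM on CDA-HFD, where the ND levels rest on 36 and 18 counts.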

How the results depend on the processing

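No paired analysis was possible because each group held 1 mouse, while cell classes were compared within each mouse. Of 226 counts of lysosome genes past 1.5-fold under an alternative, 194 were within 1.5 times the reported count and 32 were not. Of 907 values of single genes under an alternative, 830 were called again, 64 were not called and 13 had the opposite direction, and 55 of 90 calls were made in every alternative run for them. Of the 64, 15 came from the minimum of 500 counts, which leaves the ratio as it was and drops the gene from the comparison. The cause was not tested for any of these. Atp6v0d2 gave no ratio between moKC-like macrophages and Ly6Chi monocytes with classes from clusters, since a group was at 0. TMM scaling raised the median log2 ratio of all genes by 0.146 between Kupffer cells and Ly6Chi monocytes, by 0.186 between the diets in Ly6Chi monocytes, by 0.278 in neutrophils and by 0.132 in Cd209a+ dendritic cells.

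For Kupffer cells against Ly6Chi monocytes on ND, TMM scaling and totals without the genes set to 0 each left 1 lower gene. For moKC-like macrophages against Ly6Chi monocytes TMM scaling gave 1 lower gene. For moKC-like macrophages on CDA-HFD against Kupffer cells on ND, classes from clusters gave 4 higher genes. With moKC-like cells of the ND mice in place of those on CDA-HFD, chosen after seeing the data, 2 genes were higher and 2 lower, and with classes from clusters 1 was higher and 11 lower. Between the diets in Ly6Chi monocytes, a minimum of 500 counts left 3 higher genes and classes from clusters gave 1 lower gene. In Cd209a+ dendritic cells classes from clusters gave 5 higher and 0 lower genes, and TMM scaling 0 lower genes. Between the genotypes, classes from clusters gave 2 higher genes in moKC-like macrophages, 4 lower genes in LAM-like macrophages, and 0 higher and 2 lower genes in Ly6Chi monocytes. The 2 higher genes in moKC-like macrophages were Ctsf and Ctsk, at log2 ratios of 0.770 and 1.407. Leaving out the top 5% of cells by counts gave 1 higher gene in moKC-like macrophages and 0 lower genes in Ly6Chi monocytes, with Gla at a log2 ratio of -0.552. A minimum of 500 counts left 0 lower genes in moKC-like macrophages and 1 higher gene in Ly6Chi monocytes, and TMM scaling gave 4 lower genes in LAM-like macrophages, which with it and with classes from clusters were Ctsk, Cd63, Atp6v0d2 and Gpnmb.

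In neutrophils the number of genes higher on CDA-HFD was 6 with classes from clusters, 5 with TMM scaling, 1 with at least 500 counts and 6 without the cells that held a Clec4f count, an alternative chosen after seeing the data. The number of lower genes was 9 with an own hashtag share of at least 90%, 2 with TMM scaling, and 0 with classes from clusters, with a mean over cells, without the top 5% of cells by counts and without the Clec4f cells. The mean log2 ratio turned positive with classes from clusters for Ctsb (0.801), Ctsc (0.262), Lamp1 (0.978), Lgmn (0.219) and Grn (0.171). It did so without the Clec4f cells for Ctsb (0.736), Lamp1 (0.999), Lgmn (0.319) and Grn (0.316). Without the top 5% of cells Ctsb stood at 0.212 and Lamp1 at 0.437, and with a mean over cells Lamp1 stood at 0.144. Gpnmb between the genotypes in Ly6Chi monocytes turned to -0.254 with classes from clusters. Depth limits the values of the ND classes other than Kupffer cells, which rest on 44 to 183 cells, and those of neutrophils, whose median was 3884 to 4160 counts per cell in the 4 mice.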
